A study of Mus musculus with 8 samples.

Results

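The kappa light chain variable genes (Igkv) were taken as all genes of the count table whose symbol starts with Igkv, and 103 of the 27179 listed genes met that rule. They lie on chromosome 6 in a stretch of 3149 kb (GRCm38, 67555636 to 70704177), upstream of the 5 joining segments Igkj1 to Igkj5 and of the constant gene Igkc. RefSeq annotates 102 of them as V segments and 1, Igkv13-71-1, as a pseudogene. The genes belong to 20 families by the first number of their names, the largest being Igkv4 with 28 members, Igkv8 with 11 and Igkv1 with 10. Of the 102 with a GENCODE model, 38 are transcribed in the same orientation as Igkc and 64 in the opposite orientation.

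RNA was sequenced from sorted bone marrow B-cell precursors of mice aged 7 to 10 weeks, with 2 libraries in each of 4 groups and 8 in all. The pre-proB, proB and preB groups came from Erg fl/fl mice, in which both copies of Erg are flanked by loxP sites and no Cre is present. The remaining group was pre-proB cells of Rag1CreT/+;ErgΔ/Δ mice, in which Cre recombinase driven from the Rag1 locus had deleted both floxed copies of Erg from the common lymphoid progenitor stage on, and these cells are called Erg-deleted. The genotypes therefore differed in Cre as well as in Erg, and these cannot be told apart. Cells of every group were sorted as B220+IgM-IgD-NK1.1-CD11c-, and by CD43 and CD24 among other markers, pre-proB cells as CD43+CD24-, proB cells as CD43+CD24+ and preB cells as CD43-CD24+, from 2 separate mice of each genotype, so that stages of the controls can share mice, and the labels do not say which libraries did. Only counts per gene were used, in which a transcript of a rearranged kappa gene and a transcript of an unrearranged segment are not told apart.

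A kappa light chain is built in each B-cell precursor by joining 1 Igkv segment to 1 Igkj segment, a reaction that needs the recombinase made by Rag1 and Rag2. The joined exon is then transcribed and spliced to Igkc. Segments in the same orientation as Igkc are joined by deletion of the DNA between them, and segments in the opposite orientation by inversion. Rearrangement of the kappa locus is best known from the preB stage, after the heavy chain has been made, and before joining the unrearranged segments are themselves transcribed at a low level.

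The germline 3′ ends of 9 segments are shown because these segments led a library or carried a difference between groups. They comprise every segment that held the most Igkv counts in any library (Igkv1-135, Igkv1-117, Igkv1-110, Igkv14-111, Igkv12-89 and Igkv4-55), Igkv17-127, which had the lowest p-value between genotypes, Igkv10-95, whose counts overlapped between genotypes, and Igkv7-33, the only segment called lower in preB cells. Each is the last 60 bases of the V exon from GENCODE vM21 on GRCm38, 5′ to 3′ in the direction of the gene. Capitals run from the last in-frame cysteine codon to the end of the segment. The bases after that codon are the germline start of the third complementarity-determining region. Positions are Igkv1-135 at chr6:67610449-67610508 (+), Igkv17-127 at chr6:67861600-67861659 (+), Igkv1-117 at chr6:68121768-68121827 (+), Igkv14-111 at chr6:68256810-68256869 (+), Igkv1-110 at chr6:68271208-68271267 (+), Igkv10-95 at chr6:68680789-68680848 (+), Igkv12-89 at chr6:68834846-68834905 (-), Igkv4-55 at chr6:69607275-69607334 (-) and Igkv7-33 at chr6:70058632-70058691 (-).
Igkv1-135: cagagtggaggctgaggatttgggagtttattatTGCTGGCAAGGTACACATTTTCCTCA
Igkv17-127: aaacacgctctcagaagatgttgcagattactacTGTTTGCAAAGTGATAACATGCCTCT
Igkv1-117: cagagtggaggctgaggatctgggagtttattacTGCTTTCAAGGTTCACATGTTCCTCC
Igkv14-111: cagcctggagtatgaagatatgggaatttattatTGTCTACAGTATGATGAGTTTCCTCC
Igkv1-110: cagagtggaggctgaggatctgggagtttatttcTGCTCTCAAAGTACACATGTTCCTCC
Igkv10-95: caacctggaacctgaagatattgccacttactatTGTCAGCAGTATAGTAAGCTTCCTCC
Igkv12-89: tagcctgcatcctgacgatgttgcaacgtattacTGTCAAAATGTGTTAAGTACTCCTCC
Igkv4-55: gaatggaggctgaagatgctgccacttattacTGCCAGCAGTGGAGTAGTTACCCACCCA
Igkv7-33: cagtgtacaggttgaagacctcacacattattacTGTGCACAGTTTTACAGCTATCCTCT
The 60-base end of Igkv10-95 is identical to that of Igkv10-94, and that of Igkv17-127 differs from that of Igkv17-121 at 2 of 60 bases. Igkv1-110 and Igkv1-117 differ at 4 of 60. Over whole transcripts, 45 of 102 members shared at least 1 window of 100 bases, the read length, with another Igkv transcript, so reads could be split between such genes. The share of windows found in no other Igkv transcript was 83.9% for Igkv1-117, 83.8% for Igkv1-110, 82.5% for Igkv17-127 and 83.9% for Igkv4-55. It was 98.6% for Igkv1-135 and 100% for Igkv14-111, Igkv10-95, Igkv12-89 and Igkv7-33.

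Library totals lay between 15565381 and 18457632 counts, at which 3 counts were worth 0.157 to 0.194 CPM (counts scaled to a common TMM-normalised library size). Erg was at 69.8 and 25.1 CPM in the control pre-proB libraries and at 2.49 and 2.58 CPM in the Erg-deleted ones (log2 fold change -4.23 ± 0.55 SE, edgeR adjusted p = 0.025). The pre-proB gates of both genotypes held transcripts that mark plasmacytoid dendritic cells, whose 4 markers summed to 7660 to 8975 CPM in the 4 pre-proB libraries and to 392 to 743 CPM in proB and preB libraries. From proB to preB Siglech, Bst2 and Tcf4 fell. Ly6d rose from 115 and 138 CPM in proB to 425 and 551 CPM in preB libraries, where it made up most of the sum. The 4 NK-like markers summed to 17.2 to 17.4 CPM in control and to 61.6 to 109 CPM in Erg-deleted pre-proB cells. In such bulk samples fewer cells of a type and less RNA per cell cannot be told apart.

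The summed level of all Igkv genes was lowest in Erg-deleted pre-proB cells and rose along the 3 stages of the controls. Igkv genes together had 280 and 290 CPM in the control pre-proB libraries, 412 and 530 CPM for proB, 644 and 763 CPM for preB and 19.8 and 62.7 CPM in Erg-deleted pre-proB libraries. The means were 285 ± 7.30 (SD, n = 2), 471 ± 83.0, 704 ± 83.7 and 41.2 ± 30.3 CPM. No library of a group overlapped with a library of another, and no p-value is given for sums over members. The mean rose 1.65-fold from pre-proB to proB and 1.49-fold from proB to preB, and it was 6.92-fold lower in Erg-deleted than in control pre-proB cells. The 2 Erg-deleted libraries differed from each other, with 318 and 973 Igkv counts, so that the control mean was 14.4 times that of the first library and 4.55 times that of the second.

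More segments were detected at each later stage. At least 3 counts were found for 66 and 64 of the 103 genes in control pre-proB libraries, for 94 and 95 in proB libraries, for 101 and 101 in preB libraries, and for 14 and 18 in Erg-deleted pre-proB libraries. Igkv13-71-1 had no count in any library, and Igkv1-131 had 1 count in 1 preB library and none elsewhere. The number of segments depends on how many Igkv counts a library holds, so each library was reduced to 318 Igkv counts, the total of the smallest, by the exact expectation of random draws. At this equal depth 52.9 and 52.8 segments were expected in pre-proB, 68.9 and 69.4 for proB, 77.0 and 77.3 for preB and 24.0 and 25.0 in Erg-deleted libraries. The order of the 4 groups was the same, and replicates lay closer together than groups.

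Usage was also most even in preB cells. The inverse Simpson index, the number of equally used segments that would give the same concentration of counts, was 12.2 and 12.7 in control pre-proB libraries, 32.8 and 38.8 for proB, 45.3 and 44.1 for preB and 5.59 and 4.22 in Erg-deleted pre-proB libraries. To reach 50% of the Igkv counts took 8 and 6 segments in pre-proB, 13 and 16 for proB, 19 and 19 for preB and 2 and 2 in Erg-deleted libraries. The 5 leading segments held 42.8% and 47.3% of Igkv counts in pre-proB, 28.9% and 26.5% for proB, 21.5% and 22.6% for preB and 78.3% and 78.7% in Erg-deleted libraries. Without the leading segment of each library, a setting added after the data were seen, the mean index was 27.5 in pre-proB, 41.6 for proB, 56.4 for preB and 7.16 in Erg-deleted cells, so the order of the groups did not change while the pre-proB value rose most.

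**Figure D1:**
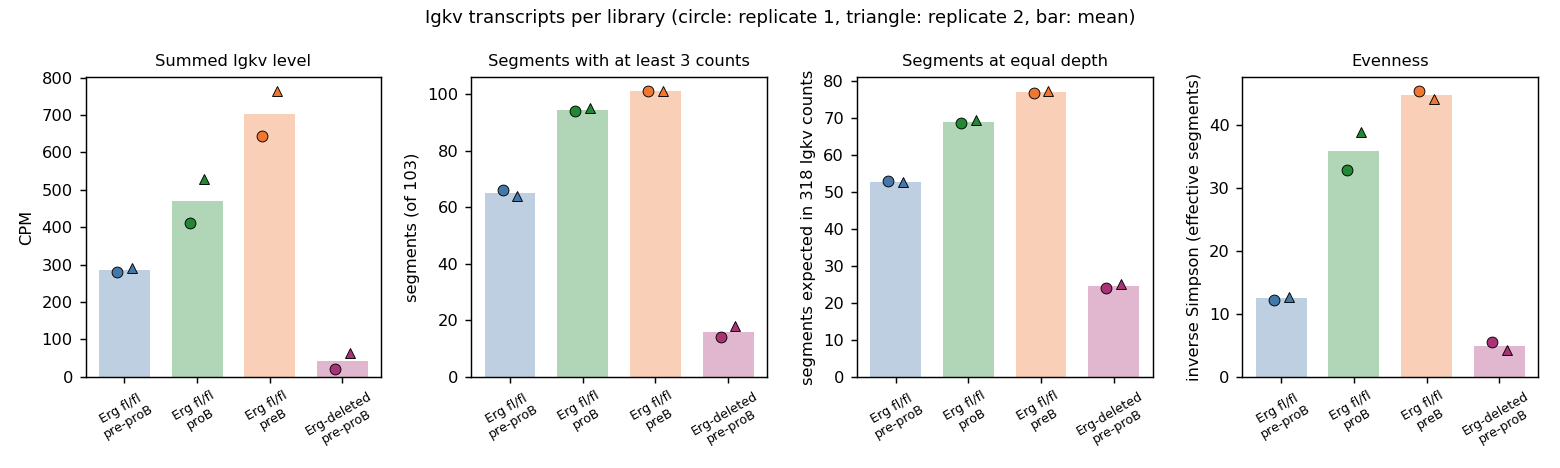
Summed Igkv level in CPM, number of Igkv genes with at least 3 counts, number expected in 318 Igkv counts and inverse Simpson index, each on a linear axis from 0, for the 8 libraries (circle, replicate 1; triangle, replicate 2; bar, mean of 2). All 4 measures were lowest in Erg-deleted pre-proB cells and rose from pre-proB to proB to preB cells of Erg fl/fl mice.

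The leading segment differed between the libraries of every group except preB. In control pre-proB cells Igkv4-55 held 25.4% of Igkv counts in the first library (95% Clopper-Pearson interval 24.1 to 26.7) and Igkv12-89 held 23.0% in the second (21.9 to 24.3). In proB cells Igkv1-117 led the first library with 10.3% (9.58 to 10.97) and Igkv1-110 the second with 7.59% (7.09 to 8.13). In preB cells Igkv1-135 led both, with 8.61% (8.10 to 9.14) and 8.83% (8.36 to 9.32). In Erg-deleted pre-proB cells Igkv14-111 led the first with 33.3% (28.2 to 38.8) and Igkv1-117 the second with 44.5% (41.3 to 47.7). These intervals cover counting error only, and reads without molecular identifiers are not independent molecules.

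The replicates of the preB group agreed within little more than counting noise, which those of the other groups did not. A chi-square of Igkv counts between the 2 libraries of a group, divided by its degrees of freedom and equal to about 1 where only counting noise is present, was 1.13 for preB, 24.2 for proB, 61.3 in control pre-proB and 33.5 in Erg-deleted pre-proB cells. Over all genes the same measure was 6.21, 3.82, 7.17 and 8.29. The Igkv value was below that of all genes in preB cells and above it in the other 3 groups. Where replicates vary beyond counting noise, the measure grows with the number of counts per gene. Igkv genes and all genes differ in that number, so their values are not compared on equal terms. Among members with at least 20 counts in a group, 0 of 95 differed by over 4-fold between preB replicates, 8 of 80 between proB replicates, 28 of 61 between control pre-proB replicates and 4 of 11 between Erg-deleted replicates. The 10 leading segments shared 9 members between preB libraries, 5 between proB, 5 between pre-proB and 4 between Erg-deleted libraries.

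**Figure D2:**
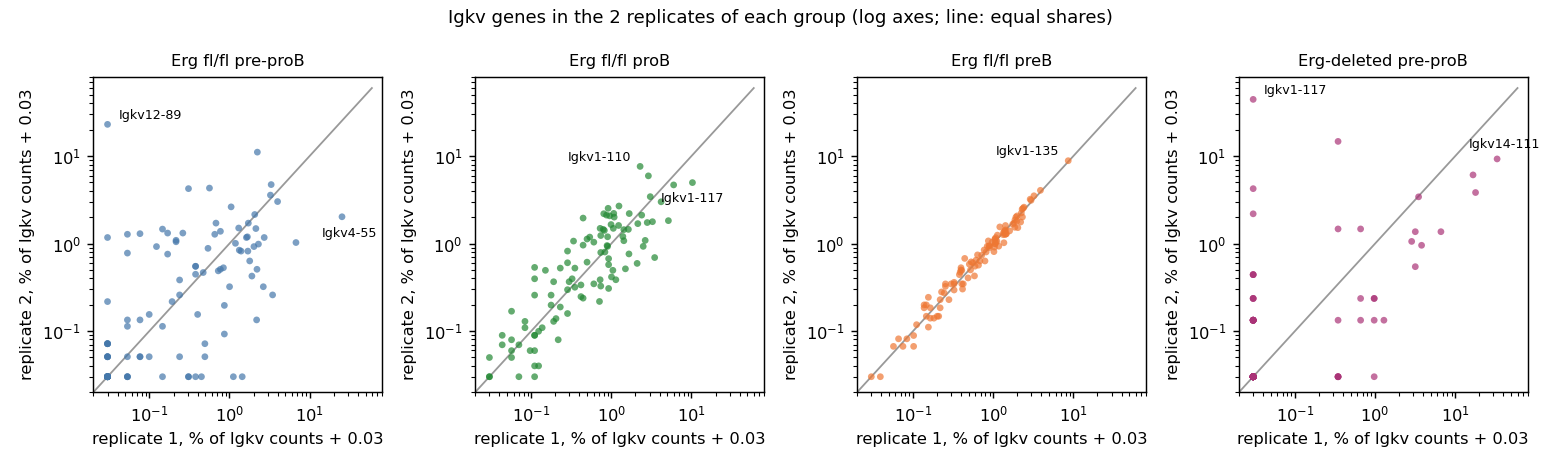
Percentage of Igkv counts held by each of the 103 Igkv genes in replicate 1 (x axis) and replicate 2 (y axis) of each group, on log axes with 0.03 added, with the line of equal shares. The preB points lie along the line, whereas Igkv12-89 (0% and 23.0%) in pre-proB and Igkv1-117 (0% and 44.5%) in Erg-deleted cells lie far from it.

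Single segments show the size of these differences. Igkv4-55 had 1097 and 96 counts in the control pre-proB libraries (71.1 and 5.79 CPM), 258 and 67 for proB, 149 and 135 for preB and 0 and 0 in Erg-deleted libraries. Igkv12-89 had 0 and 1109 counts in control pre-proB (0 and 66.9 CPM), 57 and 144 for proB, 85 and 82 for preB and 0 and 0 in Erg-deleted libraries. Both segments were high in 1 pre-proB library only and near-equal in the 2 preB libraries. Igkv10-96 had 95 and 533 counts in pre-proB, 215 and 599 for proB, 256 and 270 for preB and 11 and 33 in Erg-deleted cells. Igkv12-44 had 291 and 48 counts in pre-proB, 65 and 118 for proB, 205 and 205 for preB and none in Erg-deleted cells. The mean levels of Igkv4-55, Igkv12-89 and Igkv12-44 in pre-proB cells therefore rest on 1 library each, and none of these segments passed the test between any pair of stages.

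Igkv1-135, a segment near the distal end of the locus, was among the 5 highest segments per length in the mean of every group. It had 9.20 and 13.6 CPM in control pre-proB, 24.6 and 24.6 for proB, 55.5 and 67.4 for preB and 3.29 and 3.799 in Erg-deleted libraries. The 4 groups did not overlap. Its level rose from pre-proB to proB (log2 fold change 1.12 ± 0.18 SE, edgeR adjusted p = 0.000429) and from proB to preB (1.36 ± 0.15, adjusted p = 0.00013). Per kilobase of exon it stood at a mean of 29.0, 62.5 and 156 CPM in pre-proB, proB and preB cells.

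In preB cells the order of levels per kilobase of exon was Igkv1-135 with a mean of 156 CPM, Igkv1-117 with 68.8, Igkv19-93 with 65.0, Igkv17-127 with 59.5 and Igkv17-121 with 58.5. Igkv1-135 stood above the others in both libraries. Igkv17-127 and Igkv17-121, which differ at 2 of the 60 bases of their 3′ ends, were at 18.46 and 24.3 CPM and at 18.9 and 23.6 CPM, which did not differ beyond their spread.

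From pre-proB to proB cells, 82 of the segments tested had a log2 fold change above 0. Of the 103 genes, 95 reached 0.5 CPM in 2 or more of the 6 Erg fl/fl libraries and were tested, and 27 of these were below 0.5 CPM in both pre-proB libraries and passed only through the later stages. The counts of called genes describe those 95 and are no evidence on all 103. By edgeR 52 were called higher in proB and 1 lower, against 36.2% of all 13650 genes tested called higher, 36.8% lower and 73% in either direction. Of the 27 segments below 0.5 CPM in both pre-proB libraries 23 were called, and of the other 68 segments 30 were. Over these 68 the median log2 fold change was 1.11, and 13 had a log2 fold change under 0. The median log2 fold change of the 95 was 1.53, or 1.41 with the 7 segments at 0 in both pre-proB libraries set to their lower bound, and that of all genes tested was 0.00.

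Igkv1-88 had the lowest p-value of this step. It was at 1.04 and 0.362 CPM in pre-proB, at 17.1 and 15.7 for proB, at 13.97 and 13.2 in preB and at 0 in both Erg-deleted libraries, and the rise to proB was 4.58 ± 0.28 on the log2 scale (edgeR adjusted p = 1e-06). Igkv1-117 had 5.70 and 6.15 CPM in pre-proB and 42.3 and 26.2 in proB (2.54 ± 0.24, edgeR adjusted p = 1.81e-05), and did not pass the test from proB to preB cells (24.8 and 30.7 CPM, -0.26 ± 0.20, adjusted p = 0.295). Igkv19-93 rose from 4.66 and 2.29 to 12.5 and 18.0 CPM (2.16 ± 0.30, edgeR adjusted p = 0.0002). Each of these 3 segments had both proB libraries above both pre-proB libraries, as the rule for naming genes required. The others named by lowest p were Igkv3-12, Igkv9-129, Igkv6-20, Igkv5-39 and Igkv4-86, with log2 fold changes between 1.75 and 5.03. Igkv6-20 shares most of its sequence windows with other segments (44.2% unique).

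Igkv2-109 was the only segment called lower in proB cells. It had 4.73 and 4.88 CPM in pre-proB, 2.37 and 1.67 for proB and 6.55 and 8.34 in preB libraries. The fall to proB was -1.23 ± 0.24 on the log2 scale (edgeR adjusted p = 0.00155) and the rise to preB 1.92 ± 0.23 (adjusted p = 0.000185).

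From proB to preB cells, 42 of the 95 segments tested were called higher and 1 lower by edgeR, where 29% of all genes tested were called higher, 29.9% lower and 58.9% in either direction. The median log2 fold change was 1.00 over the 95 and 0.00 over all genes tested. The 95 include segments that passed the filter through the preB libraries alone, where they were high. These counts and the median therefore describe the segments tested and are no evidence on all 103. With 1 preB library left out 84 segments were tested, of which 25 were called without the first and 16 without the second, where 48.9% and 50.9% of all genes tested were called.

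Igkv8-16 led this step by p-value. It had 0.0648 and 0.301 CPM in pre-proB, 0.825 and 0.837 for proB and 6.497 and 6.72 in preB cells (3.02 ± 0.30 on the log2 scale from proB to preB, edgeR adjusted p = 6.9e-05). Igkv9-129 had 1 and 1 counts in pre-proB, 19 and 27 for proB and 83 and 111 in preB cells, a ratio of preB to proB of 4.46 (95% counting interval 3.22 to 6.30). Igkv11-125 had 1 and 0 counts in pre-proB, 11 and 17 for proB and 65 and 84 in preB cells, a ratio of 5.63 (3.74 to 8.76). Igkv8-23-1 was at 0 in both pre-proB libraries, at 13 and 11 counts in proB and at 53 and 75 for preB, at least 38.8-fold higher in preB than in pre-proB cells with 3 counts over the group as the floor. These segments were little detected in pre-proB cells and were among the segments gained at the later stages. Igkv4-73, a pseudogene by GENCODE, and Igkv4-51 were called as well (2.51 ± 0.36 and 2.61 ± 0.38, edgeR adjusted p = 0.000454 and 0.000499).

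Igkv7-33 moved the other way. It had 27 and 60 counts in control pre-proB (1.75 and 3.62 CPM), 155 and 57 in proB (8.53 and 2.98 CPM), 14 and 11 in preB (0.805 and 0.616 CPM) and 1 and 143 in Erg-deleted libraries (0.0621 and 9.21 CPM). Both preB libraries lay below all 4 earlier control libraries. The fall from proB to preB was -2.97 ± 0.60 on the log2 scale (edgeR adjusted p = 0.00286), and that from pre-proB to preB -1.87 ± 0.64 (adjusted p = 0.0277). With all 8 libraries in 1 fit neither passed (adjusted p = 0.0692 and 0.232). The fall from pre-proB to preB was also not called without the second pre-proB library (adjusted p = 0.164) or without the first or the second preB library (0.0877 and 0.138).

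Over the whole interval from pre-proB to preB, edgeR called 67 of the 95 segments tested higher and 1, Igkv7-33, lower, where 36.5% of all genes tested were higher, 34.1% lower and 70.7% called in either direction. The median log2 fold change was 2.28 over the segments tested, the same with the 8 segments at 0 in pre-proB at their bound, and 0.04 over all genes tested. The 95 include the 27 segments below 0.5 CPM in both pre-proB libraries, which passed the filter only through the later stages. These counts and medians therefore describe the segments tested and are no evidence on all 103. With 1 preB library left out, 50 of 84 segments tested were called without the first and 44 of 84 without the second, all higher, where 64.5% and 65.1% of all genes were called, and the call of Igkv7-33 was lost. Mean levels of 71 of the 103 members rose at both steps, 83 were highest in preB, 16 in proB and 3 in pre-proB cells, and 1 had no count. The 3 were Igkv4-55, Igkv12-89 and Igkv4-61, which are named here after their values were seen.

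**Figure D3:**
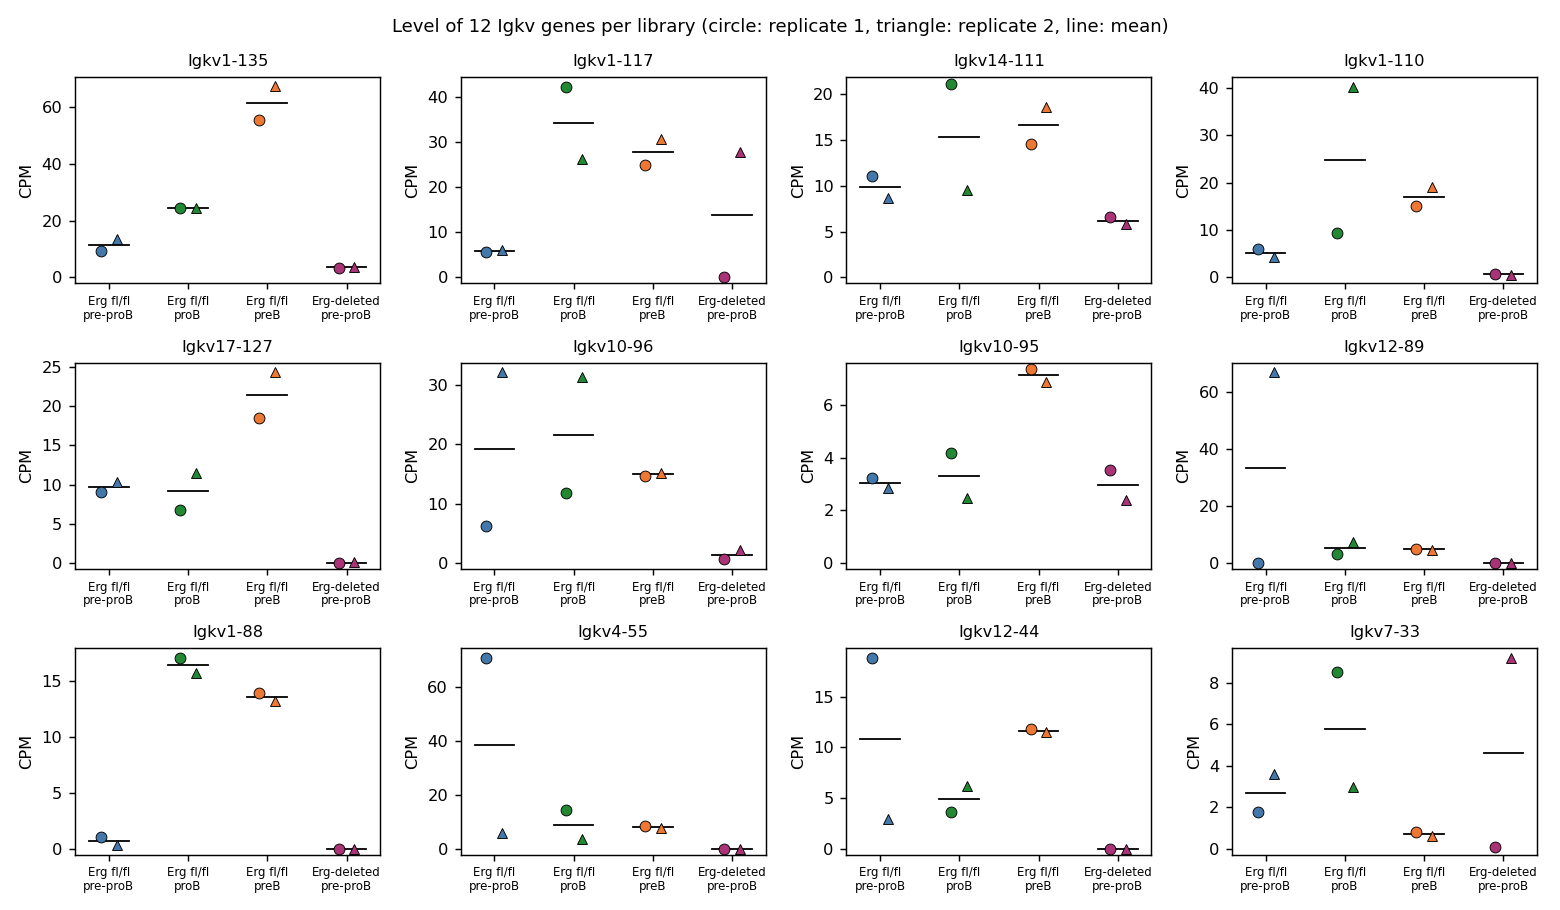
Level in CPM of 12 Igkv genes in each library (circle, replicate 1; triangle, replicate 2; line, mean of 2; linear axes that differ between panels). Igkv1-135 rose at each stage, Igkv1-88 was high from proB on, and Igkv4-55 and Igkv12-89 were high in 1 pre-proB library each.

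Levels along the chromosome were described in 3 near-equal parts of the members in order of position, 35 distal, 34 middle and 34 proximal to Igkj1. The distal part held 31.0% and 66.1% of Igkv counts in control pre-proB libraries, 55.0% and 53.4% for proB, 50.0% and 50.8% for preB and 90.6% and 72.6% in Erg-deleted libraries. The middle part held 48.1% and 19.9%, 19.0% and 20.7%, 21.7% and 21.0%, and 2.20% and 3.803%. The proximal part held the rest, 20.9% and 14.02%, 26.0% and 25.9%, 28.3% and 28.2%, and 7.23% and 23.6%. The 2 control pre-proB libraries differed in the distal share. Igkv4-55, which led the first, lies in the middle part, and Igkv12-89, which led the second, lies in the distal part. The preB shares agreed within 1 percentage point.

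Called segments were spread over the locus. From pre-proB to preB 22 of 33 distal, 20 of 32 middle and 25 of 30 proximal segments tested were called higher, with median log2 fold changes of 2.04, 2.19 and 2.49. Segments in the same orientation as Igkc held 32.1% and 32.8% of Igkv counts in control pre-proB, 46.9% and 44.6% for proB, 48.2% and 49.8% for preB and 80.2% and 67.1% in Erg-deleted libraries. The share was thus lower in both pre-proB control libraries than in all other libraries. Leaders of the 2 control pre-proB libraries, Igkv4-55 and Igkv12-89, are both in the opposite orientation.

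**Figure D4:**
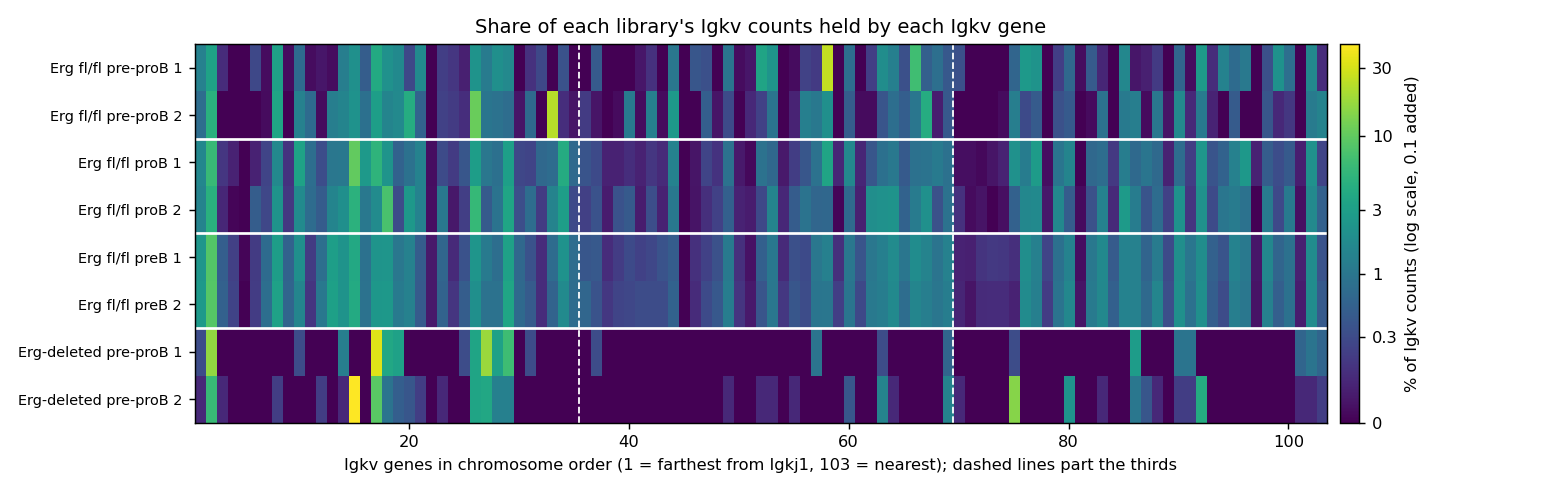
Percentage of each library's Igkv counts held by each of the 103 Igkv genes, in chromosome order from the gene farthest from Igkj1 to the nearest, colour on a log scale with 0.1 added, with dashed lines between the 3 parts. The 2 preB rows are alike, single bright genes stand out in the pre-proB rows, and most genes are at 0 in the Erg-deleted rows.

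Family shares were close between the preB replicates. The 28 Igkv4 genes held 35.96% and 13.0% of Igkv counts in control pre-proB libraries, 14.2% and 12.4% for proB, 13.2% and 13.3% for preB and 1.26% and 0.822% in Erg-deleted libraries. The 10 Igkv1 genes held 8.12% and 8.60% in control pre-proB, 23.4% and 20.8% for proB, 18.8% and 19.2% for preB and 20.4% and 51.8% in Erg-deleted libraries. The Igkv1 share was lower in both control pre-proB libraries than in all others.

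In the fit of the 4 pre-proB libraries 45 of the 103 members passed the filter. Of these, 30 passed through the control libraries alone, the group where they were high, so that the counts and medians over the 45 describe the members tested and are no evidence on the Igkv genes as a whole. By edgeR 18 of the 45 were called lower and 0 higher, 15 of them among those 30, where 0.946% of all 13005 genes tested were called lower, 0.215% higher and 1.16% in either direction. No member was higher at an unadjusted p under 0.05, and DESeq2 called 28 lower and 0 higher. Of the 45, 43 had a log2 fold change under 0. The median was -5.48, or -4.18 with the 14 segments at 0 in both Erg-deleted libraries at their bound, and that of all genes tested was 0.01. Over the 15 members that reached 0.5 CPM in an Erg-deleted library, 3 were called lower, 13 had a log2 fold change under 0 and the median was -1.69. Without the first control library 15 members were tested and 5 called (median -1.31), where 0.847% of all genes were called, and without the second 15 were tested and 7 called (median -1.55), where 3.16% were. Without either Erg-deleted library 45 were tested and 2 called, where 0.124% and 0.0775% of all genes were, and without the first 1 of the 2, Igkv1-117, was called higher.

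Of the 40 segments with at least 10 counts in both control libraries, 13 had no count in either Erg-deleted library, 8 had 1 to 3 counts in all, and 6 had at least 10 counts in both. Over all 103 members, 60 were at 0 in both Erg-deleted libraries. A count of 0 in a library allowed a level of up to 0.186 and 0.193 CPM in the 2 Erg-deleted libraries.

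Igkv17-127 had the lowest p-value between genotypes. It had 139 and 171 counts in control (9.004 and 10.3 CPM) and 0 and 2 in Erg-deleted pre-proB cells (log2 fold change -7.09 ± 0.51, edgeR adjusted p = 0.0089), and the ratio of control to Erg-deleted counts was 153 (95% counting interval 42.0 to 1270). It was the only member called lower both without the first and without the second Erg-deleted library. Igkv6-23 had 69 and 55 counts in control and 0 in both Erg-deleted libraries, at least 40.8-fold lower (edgeR adjusted p = 0.0178). Igkv3-2, the member next to last before Igkj1, had 71 and 56 counts against 3 and 1 (-4.90 ± 0.49, edgeR adjusted p = 0.0178).

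For the other segments named by lowest p, control and Erg-deleted libraries did not overlap because the naming rule required it. Igkv9-120 had 55 and 71 counts against 4 and 1, Igkv2-137, the most distal member, 59 and 38 against 1 and 1, and Igkv12-46 56 and 39 against 0 and 1. Igkv2-109 had 73 and 81 counts against 10 and 5, and Igkv1-110 91 and 70 against 12 and 9. Their edgeR adjusted p-values lay between 0.0178 and 0.0195, and all 5 were above 0.05 without either Erg-deleted library. Igkv1-135 was called lower as well (-1.69 ± 0.24, edgeR adjusted p = 0.0332), at 142 and 226 counts against 53 and 59.

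The segments that dominated a single control library did not pass the test. Igkv4-55 had 1097 and 96 counts in control and none in Erg-deleted libraries, at least 393-fold lower over the group (edgeR adjusted p = 0.137). Igkv12-44, with 291 and 48 counts against none, was at least 112-fold lower (edgeR adjusted p = 0.0869). Igkv12-89, with 0 and 1109 counts against none, did not enter the fit because only 1 of the 4 libraries reached 0.5 CPM.

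Some segments were still counted in both Erg-deleted libraries. Igkv14-111 had 171 and 144 counts in control and 106 and 90 in Erg-deleted libraries (-0.68 ± 0.19, edgeR adjusted p = 0.195), and Igkv10-95 50 and 47 against 57 and 37 (-0.04 ± 0.29, adjusted p = 0.974). With Igkv1-135, Igkv10-96, Igkv10-94 and Igkv19-93 these were the 6 members with at least 10 counts in both Erg-deleted libraries. The ratio of control to Erg-deleted levels was 14.1 for Igkv10-96, 5.54 for Igkv10-94, 3.24 for Igkv1-135 and 3.19 for Igkv19-93, of which Igkv1-135 passed the test. All 6 lie in the distal part, and they are named here after their values were seen. A p above the threshold does not show that Igkv14-111 and Igkv10-95 were at the same level in both genotypes.

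Igkv1-117 and Igkv7-33 separated the 2 Erg-deleted libraries. Igkv1-117 had 0 and 433 counts there and 88 and 102 in control cells, and Igkv7-33 had 1 and 143 against 27 and 60. Neither passed the test with both libraries (1.22 ± 1.31 and 0.77 ± 1.20, edgeR adjusted p = 0.754 and 0.841). The direction for Igkv1-117 depended on the library. It was called higher in Erg-deleted cells without the first Erg-deleted library (log2 fold change 2.23, edgeR adjusted p = 0.0282) and lower without the second (adjusted p = 0.0439), where its count was 0. With 1 library left in a group, that library was assumed to vary like the others. Leaving these 2 segments aside, the Erg-deleted libraries held 317 and 397 Igkv counts. The 2 segments were picked after their values were seen, so nearer totals without them follow in part from the choice. Igkv6-15, with 41 counts over both Erg-deleted libraries, and Igkv8-27, with 21, were also counted in the second library only.

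The joining segments and the constant gene gave the rest of the locus. Transcripts of a joined kappa gene carry Igkc after splicing, but counts of Igkc and Igkj genes do not show whether joining had occurred. Igkc had 319 and 314 CPM in control pre-proB, 532 and 695 for proB and 1015 and 1125 for preB libraries. In Erg-deleted libraries Igkc had 113 and 93.6 CPM. It rose at both steps (0.97 ± 0.12 and 0.84 ± 0.12 on the log2 scale, edgeR adjusted p = 9.78e-05 and 0.000461) and fell in Erg-deleted cells (-1.62 ± 0.10, adjusted p = 0.00296). All 5 Igkj genes rose at both steps, by 1.64 to 2.18 and by 1.28 to 1.84. Their sum was 19.8 and 21.6 CPM in control pre-proB, 72.7 and 69.6 for proB, 237 and 200 for preB and 34.5 and 10.04 in Erg-deleted libraries.

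The ratios between the parts of the locus differed between groups. Igkv counts per Igkc count were 0.877 and 0.925 in control pre-proB, 0.775 and 0.762 for proB, 0.635 and 0.678 for preB and 0.175 and 0.669 in Erg-deleted libraries. Igkj counts per Igkv count were 0.0708 and 0.0744 in control pre-proB, 0.176 and 0.131 for proB, 0.368 and 0.262 for preB and 1.75 and 0.160 in Erg-deleted libraries. The first Erg-deleted library was therefore the only one with more Igkj than Igkv counts. None of the Igkj genes passed the test between genotypes, with adjusted p-values of 0.767 to 0.999 by edgeR, and the 2 Erg-deleted libraries lay on either side of the control libraries. A read pair that spans a V and a J or C gene can be left unassigned by the counting program, a setting that is not given in the sources used here.

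Of 21 genes that act on the kappa locus or make the recombinase, 14 were higher and 6 lower in proB than in pre-proB cells, 11 higher and 3 lower in preB than in proB cells, and 0 higher and 5 lower in Erg-deleted than in control pre-proB cells. Of all genes tested, 73%, 58.9% and 1.16% were called in these comparisons, and the share called higher was 36.2%, 29% and 0.215%. Rag1, a subunit of the recombinase, had 285 and 119 CPM in control pre-proB, 665 and 571 for proB, 1834 and 1905 for preB and 7.95 and 8.44 in Erg-deleted libraries. Between genotypes it fell (-4.63 ± 0.45 on the log2 scale, edgeR adjusted p = 0.0178), as did Rag2, Ebf1, Pax5 and Pou2af1. Irf4, which acts on the kappa enhancers, was at 74.4 and 58.0, 498 and 467, 904 and 853, and 40.0 and 45.8 CPM in the same order of groups. From pre-proB to proB Irf8 went the other way, at 3479 and 3950 and then 197 and 213 CPM. Tcf4, also 1 of the plasmacytoid dendritic cell markers, fell from 1555 and 1645 to 191 and 188 CPM. The part of such cells in these counts was not tested. In the lambda locus, the other light chain locus, 4 of 6 genes were higher and 2 lower in proB than in pre-proB cells, 5 higher and 0 lower in preB than in proB cells, and 0 higher and 1 lower in Erg-deleted cells, against the same shares of all genes.

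The 5 genes outside the kappa locus whose log2 level over the 8 libraries was most like that of summed Igkv were the heavy chain variable genes Ighv1-26 (Pearson r = 0.983), Ighv1-72 (0.971), Ighv1-15 (0.961) and Ighv1-76 (0.959), and Cplx2 (0.959), among 13377 genes compared. These values describe 8 libraries of 4 groups and carry no test.

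Markers of antibody-secreting and mature B cells were set beside these results. Jchain, which joins secreted antibody chains, had 97.4 and 105 CPM in control pre-proB, 212 and 204 for proB, 7.42 and 1.68 for preB and 9.51 and 41.9 in Erg-deleted libraries. Jchain was thus lowest in the preB libraries, at 129 and 30 counts. Of the other plasma cell-like markers, Prdm1 (7.93 and 5.66 CPM) and Derl3 (12.7 and 13.4 CPM) were instead highest there. From proB to preB edgeR called 3 of the 8 markers higher and 3 lower, where 29% and 29.9% of all genes tested were. The 8 plasma cell-like markers summed to 691 and 741, 529 and 538, 308 and 347, and 638 and 742 CPM, of which Xbp1, also high in plasmacytoid dendritic cells, made up most in pre-proB cells. Tnfrsf17, a defining marker of plasma cells, had 0 to 12 counts per library and was at 0 in the second preB library only. The 6 mature B-like markers summed to 71.4 and 64.9 CPM in control pre-proB, 193 and 202 for proB, 603 and 677 for preB and 40.6 and 38.4 in Erg-deleted libraries, rising and falling with summed Igkv. By edgeR 4 of the 6 were called higher from pre-proB to proB and all 6 from proB to preB. Of all genes tested 36.2% and 29% were higher in these steps. Between genotypes 2 of 5 tested were called lower, where 0.946% of all genes tested were. The part of such cells in these results was not tested.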

How the data were processed

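RNA-seq counts of 8 libraries were used, 2 of each of 4 groups. Per the study's methods and the labels, the authors trimmed 100-base read pairs with Trim Galore, aligned them to mm10 with STAR and deposited raw counts per Entrez gene from featureCounts. The submitters' processing notes also name CASAVA 1.8.2. For strand, multi-mapping and overlap, the settings were not given in the sources used here. Symbols came from RefSeq for 25275 identifiers and GENCODE for 18, and the 1886 without one held 0.571% of counts. Igkv members, gene lists and tests were chosen with earlier results of these data known.

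The quasi-likelihood test of edgeR 4.0.16 (R 4.3.3) with TMM scaling was run on genes that reached 0.5 CPM in 2 or more libraries, with Benjamini-Hochberg adjustment over all genes and a threshold of 0.05, in 1 fit of the 6 Erg fl/fl libraries and 1 of the 4 pre-proB libraries. The scripts were tested on simulated data. Genes named are up to 8 called genes per direction and comparison, those of lowest p whose libraries did not overlap between the groups. The 5 of highest mean CPM per kb of each group and the leading segment of each library are named as well. Shares, expected segments and intervals were computed with Python 3.11.15, numpy 2.4.6, pandas 2.3.3 and scipy 1.17.1. An exact permutation test of 2 against 2 libraries cannot go below p = 0.33, so none is given. Alternatives were DESeq2 1.42.0, other scalings, no filter, a replicate block, 1 fit of all libraries, and leaving out each library.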

Additional observations from a re-analysis of the deposited data

How the results depend on the processing

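Most of the segments called were higher at each later stage and lower in Erg-deleted cells under every alternative run, except without the first Erg-deleted library, where 1 segment was higher and 1 lower. DESeq2 called 28 segments between genotypes in place of 18. Leaving out 1 library gave 38 to 62 segments from pre-proB to proB, 16 to 57 from proB to preB, 44 to 82 from pre-proB to preB and 2 to 7 between genotypes. Among single genes, 15 values between genotypes, 4 from pre-proB to preB and 1 from proB to preB lost their call under an alternative. The replicate numbers could not be shown to pair the libraries, since same-numbered libraries deviated together with correlations of -0.0290 to 0.119 over all genes. Over the 103 Igkv genes, same-numbered control pre-proB and proB libraries had r = 0.745 and 0.737 and crossed ones 0.649 and 0.669, while same-numbered proB and preB libraries had 0.833 and 0.841 and crossed ones 0.813 and 0.852. The stages can share mice, but which libraries did is not given in the labels. With the replicate number as a block, 55, 46, 70 and 26 segments were called in these comparisons.

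At a minimum of 10 counts the mean number of segments was 52.5 in pre-proB, 79.5 in proB, 94.5 in preB and 10.5 in Erg-deleted cells, and at 318 counts it was 52.9, 69.2, 77.1 and 24.5. As the exponential of Shannon's index evenness was 28.6, 53.4, 64.5 and 8.38, and divided by length the inverse Simpson index was 12.005 in pre-proB and 46.5 in preB cells. Without the leading segment, a setting chosen after the data were seen, the index was 27.5, 41.6, 56.4 and 7.16. The distal share without the leading segment was 49.7% in proB, 45.6% in preB and 68.2% in Erg-deleted cells, and divided by length it was 49.7% in preB cells.

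The sign of Igkj genes between genotypes, none of which passed the test, depended on the setting. With 1 library left out, log2 fold changes ran from -0.38 to 0.86 for Igkj1, from -1.12 to 0.56 for Igkj2, from -0.67 to 0.88 for Igkj3, from -1.56 to 0.77 for Igkj4 and from -1.27 to 0.66 for Igkj5, the lowest value each time without the first Erg-deleted library and the highest without the second. With the replicate block they were -0.21 for Igkj4 and -0.18 for Igkj5, and for Igkj5 -0.032 with total counts and -0.0022 with DESeq2. The cause of these moves was not tested. Between 318 and 973 Igkv counts per Erg-deleted library limit what could be detected there.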
